A study of Mus musculus with 4 samples.

Results

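The T cell receptor alpha and beta segments are described here in mouse splenocytes, the mixed cells of a whole spleen. They are the 80 of 14226 rows of the deposited expression table whose gene symbol, or the symbol of whose Ensembl identifier where no symbol was given, begins with Trav, Traj, Trac, Trbv, Trbj or Trbc. There were 2 libraries of vcS5 mice, labelled as transgenic with the genotype vcS5 +/T and named line1 in the table, and 2 libraries of wild-type (wt) mice. All mice were of the C57BL/6N strain, and the submitters call the samples of a group biological replicates. By its title the series concerns STAT5, a transcription factor downstream of cytokine receptors, with an activating mutation, and lymphoma of peripheral T cells. The labels give neither the promoter of the transgene nor the age of the mice. They do not say how many founder lines there were. Levels are FPKM, read fragments scaled by the length of the transcript and the size of the library.

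A T cell receptor is a pair of chains, mostly an alpha and a beta chain, that reads peptides held by MHC molecules on other cells. In the thymus, each developing T cell cuts and joins 1 variable (V) and 1 joining (J) segment for the alpha chain, and a V, a diversity and a J segment for the beta chain. The joined exon is spliced to a constant (C) region. A polyclonal T cell population therefore carries many V segments, and the progeny of a single T cell carries one rearranged beta chain. The chains reach the cell surface only with the CD3 and zeta proteins, which pass the signal into the cell.

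Of the 80 rows, 43 are alpha V segments (TRAV), 16 are alpha J segments (TRAJ) and 1 is the alpha constant region (Trac). The beta chain is held in 18 V rows (TRBV), 1 J row (Trbj2-7) and 1 constant-region row (Trbc2). In the GENCODE vM21 annotation of the same build there are 128 TRAV, 60 TRAJ, 35 TRBV and 14 TRBJ genes, pseudogenes included, so the rows hold part of each class. Some rows carry more than 1 gene. The row named Trbv13-2 also lists Trbv13-3 and Trbv12-2, the row named Trbv2 also lists Trbv3, and the row named Traj7 also lists Traj6 and Traj3.

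The sequences of the segments that the results turn on are given below from GENCODE vM21 transcripts on GRCm38, the mm10 build, all on the plus strand. Capitals mark the motif TGNGCN in the last 45 bases of a V segment, which in these segments begins with the codon of the conserved cysteine that opens the hypervariable junction with the J segment. The 3 TRBV rows of largest called rise on the log2(FPKM + 1) scale come first (Trbv12-1 at chr6:41114023-41114067, Trbv29 at chr6:41271837-41271881 and Trbv16 at chr6:41152186-41152230). Next are Trbv19 (chr6:41179004-41179048), above wt in both vcS5 libraries and highest in vcS5 replicate 2, and Trbv5 (chr6:41062759-41062803), whose level hardly differed. The 3 TRAV rows of largest called rise on the same scale follow (Trav12-2 at chr14:53616870-53616914, Trav16 at chr14:53743661-53743705 and Trav3-3 at chr14:53666462-53666506).
Trbv12-1: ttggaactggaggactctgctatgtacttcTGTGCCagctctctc
Trbv29: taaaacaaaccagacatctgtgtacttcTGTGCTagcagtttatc
Trbv16: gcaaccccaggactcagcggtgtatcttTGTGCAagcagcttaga
Trbv19: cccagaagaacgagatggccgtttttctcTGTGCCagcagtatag
Trbv5: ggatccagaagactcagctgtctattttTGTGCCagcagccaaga
Trav12-2: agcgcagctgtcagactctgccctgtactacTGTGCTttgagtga
Trav16: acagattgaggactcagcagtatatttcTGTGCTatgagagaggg
Trav3-3: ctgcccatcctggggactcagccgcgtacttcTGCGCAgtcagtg
Searched on the coding strand in the last 30 bases, this motif occurs in 27 of 35 annotated TRBV and 117 of 128 annotated TRAV segments (77.1% and 91.4%).

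Alpha J segments are shown whole, since their shortness bears on their values. Capitals mark the motif GGNNNNGGN, which in these segments spells the glycine-any-glycine turn of the J segment, just past the residue that closes the junction, and which 48 of 60 annotated TRAJ segments hold on the coding strand. Traj26 (chr14:54194490-54194549), Traj37 (chr14:54181518-54181577) and Traj49 (chr14:54168686-54168744) were listed at 0 in both wt libraries, and Traj21 (chr14:54198790-54198846) and Traj31 (chr14:54187895-54187951) had the highest mean TRAJ values.
Traj26: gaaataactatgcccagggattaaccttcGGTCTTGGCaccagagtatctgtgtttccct
Traj37: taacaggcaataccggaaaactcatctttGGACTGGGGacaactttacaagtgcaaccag
Traj49: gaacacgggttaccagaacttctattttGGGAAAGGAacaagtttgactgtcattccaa
Traj21: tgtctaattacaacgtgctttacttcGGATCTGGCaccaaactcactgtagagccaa
Traj31: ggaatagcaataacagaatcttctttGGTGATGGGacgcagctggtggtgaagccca

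FPKM summed to between 1219000 and 1469000 per library, with a median of 12.2 to 12.6 FPKM, and read numbers are not given, so the depth is unknown. Stat5a had 105 and 123 FPKM in vcS5 and 13.9 and 17.0 FPKM in wt. T cell markers summed to 1581 and 2040 FPKM in vcS5 and 572 and 763 FPKM in wt, with 3 of 7 called higher. B cell markers summed to 1299 and 1256 FPKM in vcS5 and 3120 and 3751 FPKM in wt, with all 8 called lower. The model behind these calls is given below, and it called 4.59% of all rows higher and 4.13% lower. In such bulk samples, fewer cells of a type and less RNA per cell cannot be told apart. The summed CD8 markers were 957 and 1105 FPKM in vcS5 against 125 and 167 FPKM in wt. The 3 CD4 markers were called lower and summed to 51.9 and 56.6 FPKM in vcS5 against 94.6 and 110 FPKM in wt. Neutrophil markers summed to 927 and 873 FPKM in vcS5 and 5615 and 1670 FPKM in wt, where replicate 1 stood apart. The part of these cell types in the results was not tested.

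Across all 80 rows, 23 were called higher and 1 was called lower in vcS5 by limma, a linear model fitted to log2(FPKM + 1) of every row, at an adjusted p under 0.05 (Benjamini-Hochberg over 14226 rows). Of all rows of the table, 4.59% were called higher and 4.13% lower, 8.72% in all. Apart from the short TRAJ rows, 16 of 64 rows were called higher and 0 lower, and 0 were called lower by the deposited q-values. Of these 64 rows, 35 had an unadjusted limma p under 0.05 in either direction, against 3595 of all 14226 rows. Both vcS5 libraries stood above both wt libraries in 53 of the 80 rows and below them in 6, against 26.9% and 27.5% of all rows. The median log2 change of the 80 rows was 0.88, and that of all rows was 0.001. Among the 23 rows called higher were 6 TRAJ rows listed at 0 in both wt libraries. With 2 libraries per group, the calls are fragile. When 1 library was left out, most of the rows still called higher, and the row called lower, were short TRAJ rows. Without vcS5 replicate 1 there were 7 rows called higher, without vcS5 replicate 2 there were 6, without wt replicate 1 there were 8 and without wt replicate 2 there were 11, with 1 called lower each time.

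The beta V segments were higher in vcS5 as a class. Their summed level was 1286 and 1371 FPKM in vcS5 and 475 and 621 FPKM in wt, a ratio of means of 2.42 (1329 ± 60.5 and 548 ± 103 FPKM, SD, n = 2 each). The groups did not overlap, and an exact permutation test over the 4 libraries gave p = 0.333 (two-sided), the smallest value that 2 against 2 libraries allow. Of 18 TRBV rows, 8 were called higher and 0 lower by limma (13 had an unadjusted p under 0.05, as did 3595 of all 14226 rows). The authors' deposited table called 11 higher and 0 lower at a q-value under 0.05, against 5.31% and 6.14% of all rows. Those 11 held the 8 limma calls. The 8 rows were Trbv12-1, Trbv29, Trbv16, Trbv17, Trbv1, Trbv14, Trbv4 and Trbv13-2, with folds of mean FPKM between 2.40 and 3.50. In 15 of 18 rows both vcS5 libraries exceeded both wt libraries, against 26.9% of all rows. The median log2 change of TRBV rows was 1.21. The number called was 1 without vcS5 replicate 1, 0 without vcS5 replicate 2, 0 without wt replicate 1 and 1 without wt replicate 2.

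**Figure D1:**
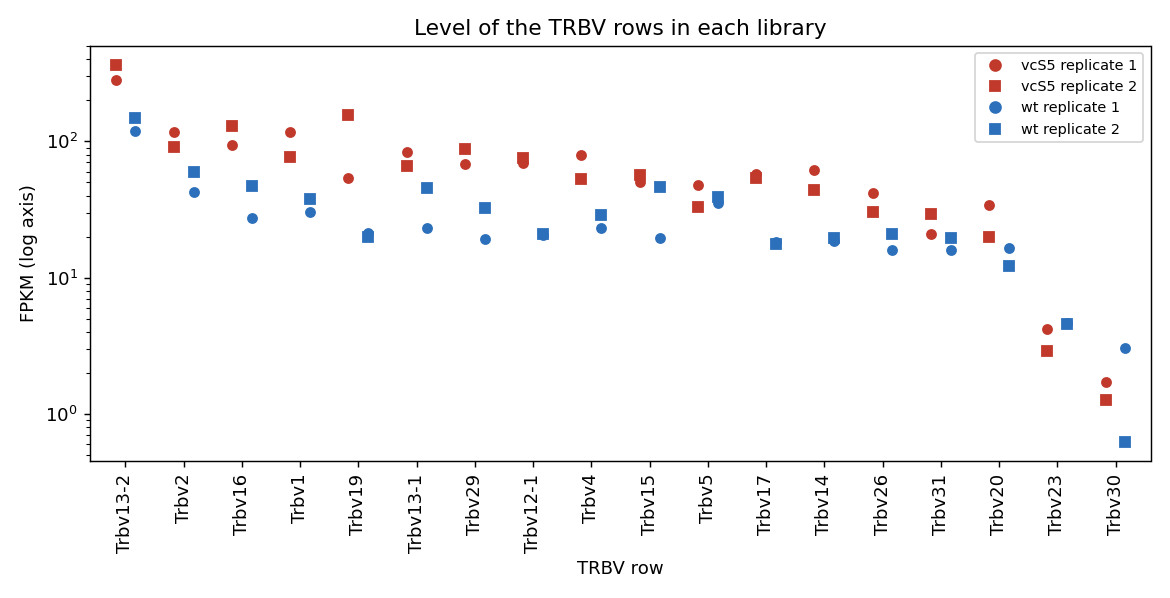
FPKM (log axis) of each of the 18 TRBV rows in the 2 vcS5 libraries (red) and the 2 wt libraries (blue), rows ordered by mean level. The vcS5 points lie above the wt points in 15 of 18 rows, and the exceptions are Trbv5, Trbv23 and Trbv30.

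Trbv12-1 showed the largest called rise of the class, by log2 change and by fold of mean FPKM. It had 69.1 and 76.0 FPKM in vcS5 against 20.5 and 20.9 FPKM in wt, with a log2 change of 1.76 and an SE of 0.13 (limma, adjusted p = 0.00489). The replicates of each group lay close together and the groups were far apart. Without vcS5 replicate 1, vcS5 replicate 2 or wt replicate 1 the adjusted p by limma was 0.0626, 0.0777 and 0.0517, with a log2 change of 1.69 to 1.83. Trbv29, a beta segment found in many CD1d-restricted NKT cells, had 68.7 and 88.4 FPKM in vcS5 against 19.2 and 32.3 FPKM in wt (log2 change 1.61 ± 0.28 SE, limma adjusted p = 0.0334). Trbv16 had 94.6 and 130 FPKM in vcS5 against 27.5 and 47.4 FPKM in wt (log2 change 1.59 ± 0.30 SE, limma adjusted p = 0.0405). In both rows the gap between the groups was wider than the gap within either group. Leaving out any 1 library ended the call of both, while the log2 change kept its sign, at 1.25 to 1.97 for Trbv29 and 1.21 to 1.97 for Trbv16.

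The most abundant row was the one named Trbv13-2, which carries 3 neighbouring segments, among them Trbv13-3. Trbv13 segments pair with the invariant alpha chains of NKT and MAIT cells and are also common in conventional T cells. The row had 281 and 365 FPKM in vcS5 against 120 and 149 FPKM in wt (log2 change 1.25 ± 0.21 SE, limma adjusted p = 0.0292). Trbv1, another partner of NKT alpha chains, had 118 and 77.1 FPKM in vcS5 against 30.4 and 37.6 FPKM in wt (log2 change 1.47 ± 0.24 SE, limma adjusted p = 0.0299). The groups did not overlap in either row. The row named Trbv2 had 117 and 90.4 FPKM in vcS5 against 42.6 and 60.0 FPKM in wt (log2 change 1.01 ± 0.23 SE, limma adjusted p = 0.0615), and Trbv13-1 had 83.2 and 66.3 FPKM in vcS5 against 23.1 and 45.6 FPKM in wt (log2 change 1.17 ± 0.34 SE, limma adjusted p = 0.107). Neither of these passed the limma threshold, and both were called higher in the authors' deposited table, at q-values of 0.0154 and 0.00792. Without any 1 library the calls of Trbv13-2 and Trbv1 were lost, with log2 changes of 1.07 to 1.44 and 1.17 to 1.77.

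Trbv19 set the vcS5 libraries apart from each other. This segment, also a partner of MAIT alpha chains, had 54.1 FPKM in vcS5 replicate 1 and 155 FPKM in vcS5 replicate 2, against 21.1 and 19.9 FPKM in wt. Both vcS5 libraries were above wt, and the distance between them was larger than that from wt to vcS5 replicate 1. The log2 change was 2.11 (SE 0.48, 95% interval 0.88 to 3.34), the largest of the class, with an adjusted p of 0.0636 by limma, while the authors' deposited table gave a q-value of 0.000995. Without vcS5 replicate 2 the log2 change was 1.358 (adjusted p = 0.103 by limma), and without vcS5 replicate 1 it was 2.86 (adjusted p = 0.0304 by limma).

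Trbv5 showed no clear rise, unlike most of the class. It had 47.7 and 33.0 FPKM in vcS5 against 35.1 and 39.4 FPKM in wt, and the groups overlapped (log2 change 0.09, 95% interval -0.44 to 0.63, adjusted p = 0.841 by limma). Its interval lies below the log2 change of every TRBV row called. In 77.4% of its windows of 50 bases, the read length, Trbv5 has the same sequence as another annotated gene, the long noncoding RNA 5830405F06Rik, as do 72.1% of the windows of Trbv4, which was called higher. The sources used here do not say how reads were divided between these genes. The lowest rows, Trbv23 and Trbv30, had 4.18 and 2.89 FPKM and 1.71 and 1.26 FPKM in vcS5, against 4.67 and 4.53 FPKM and 3.05 and 0.617 FPKM in wt, and neither was called. Trbv31, the only V segment downstream of the beta constant regions and the only inverted one, had 21.0 and 29.4 FPKM in vcS5 against 16.0 and 19.5 FPKM in wt (log2 change 0.47, 95% interval -0.06 to 1.01, adjusted p = 0.246 by limma).

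The beta constant region moved with the V segments. Trbc2, which encodes the membrane-proximal part of the beta chain, had 323 and 361 FPKM in vcS5 against 122 and 174 FPKM in wt, with a log2 change of 1.22 and an SE of 0.22 (limma, adjusted p = 0.0351). Trbc1 has no row of its own in the table used here, and 44.0% of the 50-base windows of Trbc2 also occur in Trbc1. Reads of the 2 constant regions are therefore in part indistinguishable. Trbj2-7, the last J segment before Trbc2, had 36.1 and 38.4 FPKM in vcS5 against 16.1 and 18.0 FPKM in wt (log2 change 1.09 ± 0.14 SE, limma adjusted p = 0.0162). It is 47 bases long, shorter than a read, and its row covers the same locus as Trbc2, so it is not a separate count of J usage. Leaving out any 1 library ended both calls, with log2 changes of 0.96 to 1.48 for Trbc2 and 1.01 to 1.16 for Trbj2-7.

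**Figure D2:**
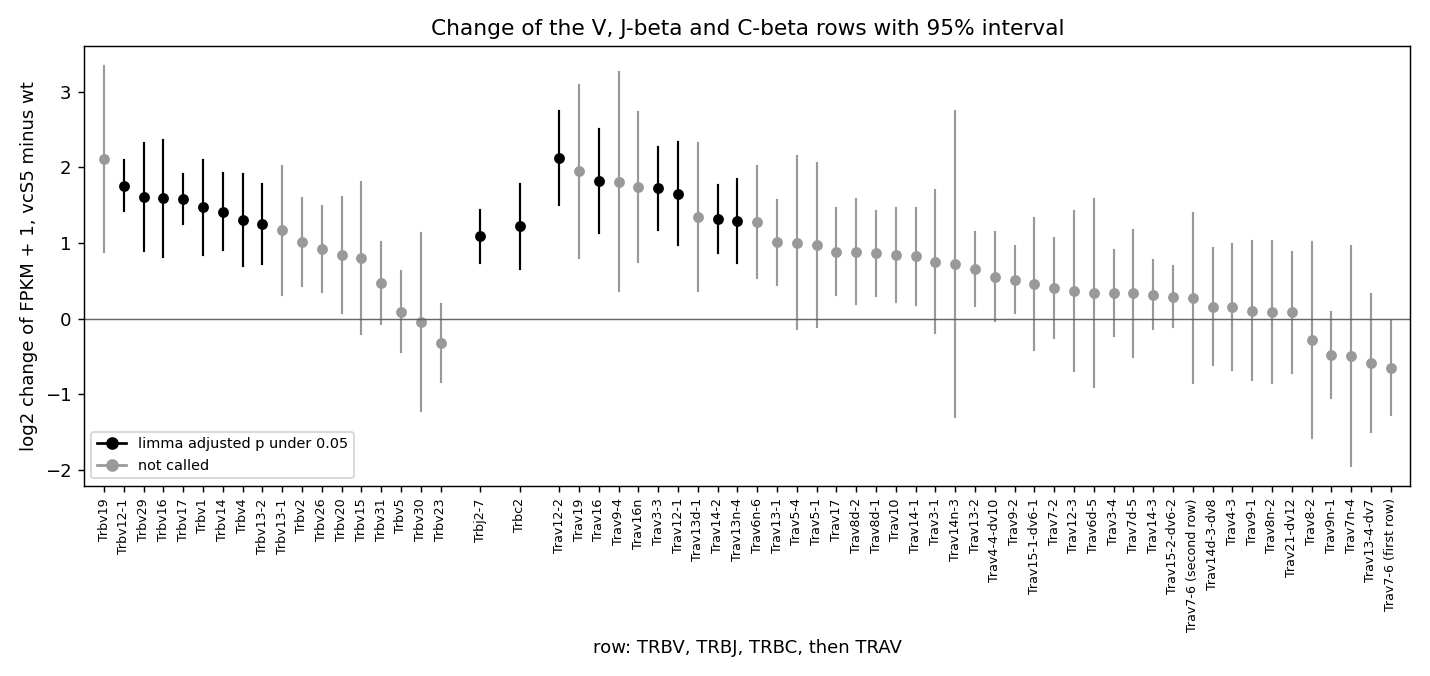
Log2 change of FPKM + 1, vcS5 minus wt, of each TRBV, TRBJ, TRBC and TRAV row, with the 95% interval of limma as a bar. Black rows passed an adjusted p under 0.05, which holds for 8 TRBV rows, Trbj2-7, Trbc2 and 6 TRAV rows, and grey rows did not.

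The alpha V segments were lower in level than the beta V segments. TRAV rows summed to 250 and 298 FPKM in vcS5 and 117 and 150 FPKM in wt, a ratio of means of 2.05 (exact permutation p = 0.333, two-sided, the smallest possible). Of 43 rows, 6 were called higher and 0 lower by limma (20 at an unadjusted p under 0.05, against 3595 of all 14226 rows). The authors' deposited table called 4 higher and 0 lower at a q-value under 0.05, against 5.31% and 6.14% of all rows. Both vcS5 libraries stood above both wt libraries in 26 rows and below them in 3, against 26.9% and 27.5% of all rows. The median log2 change was 0.65. It was 0.21 in the 14 rows with a mean of 1 to 3 FPKM. In the 18 rows of 3 to 6 FPKM it was 0.69, and in the 11 rows of 6 FPKM or more it was 1.01. All 5 TRAV rows with a log2 change below 0 had a mean of 1 to 3 FPKM. The added 1 FPKM shrinks changes most where levels are low, and its part in these medians was not tested. The number called was 0 without vcS5 replicate 1, 0 without vcS5 replicate 2, 2 without wt replicate 1 and 4 without wt replicate 2.

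On the log2(FPKM + 1) scale the called TRAV row of largest rise was Trav12-2. It had 16.4 and 18.1 FPKM in vcS5 against 4.20 and 2.36 FPKM in wt (log2 change 2.12 ± 0.24 SE, limma adjusted p = 0.0130). Trav16 had 11.9 and 19.0 FPKM in vcS5 against 2.99 and 4.24 FPKM in wt (log2 change 1.82 ± 0.27 SE, limma adjusted p = 0.0233). Trav3-3 had 18.1 and 18.5 FPKM in vcS5 against 3.85 and 6.06 FPKM in wt (log2 change 1.72 ± 0.22 SE, limma adjusted p = 0.0160). In all 3 rows the groups were separated by more than the spread within either. The other called rows were Trav12-1, Trav14-2 and Trav13n-4. Trav12-1 had 4.08 and 6.93 FPKM in vcS5 against 0.907 and 1.13 FPKM in wt, a ratio of means of 5.40 that exceeds the 5.25 of Trav12-2. Trav14-1 and Trav13-1, the most abundant TRAV rows in wt, had 14.5 and 19.1 FPKM and 12.3 and 16.3 FPKM in vcS5, against 7.13 and 11.2 FPKM and 5.56 and 7.69 FPKM in wt, and did not pass the threshold (adjusted p = 0.124 and 0.0559 by limma). Trav21-dv12, whose name records that it also joins to delta segments, had 4.82 and 9.72 FPKM in vcS5 against 5.96 and 6.99 FPKM in wt, and the groups overlapped (log2 change 0.08, 95% interval -0.72 to 0.89). Without vcS5 replicate 1 or vcS5 replicate 2 the adjusted p of Trav12-2 by limma was 0.0887 and 0.124. Trav3-3 kept its call only without wt replicate 2 (log2 change 1.45 to 1.99 over the 4 libraries left out in turn), and Trav16 kept it in no case (1.501 to 2.13).

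Single TRAV rows cannot be assigned as firmly as TRBV rows. The mouse alpha locus holds near copies of many V segments, and 39 of the 43 TRAV rows share 50-base windows with other annotated genes, against 3 of the 18 TRBV rows. Every window of 2 TRAV rows is shared. The shared part is 29.2% of Trav12-2, 48.2% of Trav16 and 40.0% of Trav3-3. The 4 TRAV rows with no shared window were Trav5-1, Trav17, Trav19 and Trav21-dv12, of which 0 were called by limma (2 had an unadjusted p under 0.05) and their median log2 change was 0.93. Of these, Trav19 had 15.0 and 11.1 FPKM in vcS5 against 1.29 and 4.65 FPKM in wt (log2 change 1.95 ± 0.45 SE, limma adjusted p = 0.0638), and the authors' deposited table gave it a q-value of 0.0396.

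The alpha constant region gave no usable comparison. Trac had 438 and 1629 FPKM in vcS5 and 2168 and 280 FPKM in wt, so that libraries of 1 group differed more than the groups did (log2 change 0.12 ± 1.10 SE, limma adjusted p = 0.966). The Trac row shares its locus with 8 TRAJ rows, and the sources used here do not say how reads were divided among these 9 rows. With quantile normalization the change was -0.14.

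The TRAJ values appear to rest on very few reads, though read numbers are not given. The 15 rows that name a single J segment are 57 to 66 bases long, which leaves 8 to 17 positions for a 50-base read. Rows of the same length took values on a ladder within a library. Of 19 values above the lowest of their length and library, 16 were within 2% of a whole multiple of that lowest value. These multiples were 1, 2 or 3. Values at a multiple of 1, with ratios of 1.003 to 1.015, show no step. The ratios that were not whole were 1.249, 2.042 and 3.732. Traj31 and Traj21, both of 57 bases, each had 9798 FPKM in vcS5 replicate 2, and Traj21 had 1655 FPKM and Traj31 had 3301 FPKM in wt replicate 1. Even the highest FPKM in these rows may therefore mark a few steps, and the height of a TRAJ row cannot be set beside that of a V row.

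Of 16 TRAJ rows, limma called 7 higher and 1 lower, against 4.59% and 4.13% of all rows. The authors' deposited table called 0 in either direction. Of the 7, Traj26, Traj37, Traj49, Traj11, Traj56 and Traj58 were listed at 0 in both wt libraries and at 668 to 4485 FPKM in vcS5. No row was at 0 in just 1 library of a group. Leaving out any 1 library left 6 TRAJ rows called higher and 1 lower. Because of these zeros no fold is stated for the 6 rows. Traj26 had 4485 and 2208 FPKM, Traj37 had 2245 and 2208 FPKM and Traj49 had 1265 and 2630 FPKM in vcS5. Traj4, the seventh row, had 1305 and 1401 FPKM in vcS5 against 585 and 688 FPKM in wt (log2 change 1.09 ± 0.20 SE, limma adjusted p = 0.0361). On the ladder, Traj4 stood at 1.984 and 2 times the lowest value of its length in vcS5. In both wt libraries Traj4 was itself that lowest value. Its small SE may reflect such steps, which was not tested, and its deposited q-value was 0.809. The row called lower was Traj7, which carries 3 J segments, with 7.75 and 8.76 FPKM in vcS5 against 325 and 468 FPKM in wt (log2 change -5.40 ± 0.21 SE, limma adjusted p = 0.000565). Traj31 and Traj40 had 3666 and 9798 FPKM and 781 and 1878 FPKM in vcS5, against 3301 and 1923 FPKM and 2096 and 2763 FPKM in wt, and were not called.

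**Figure D3:**
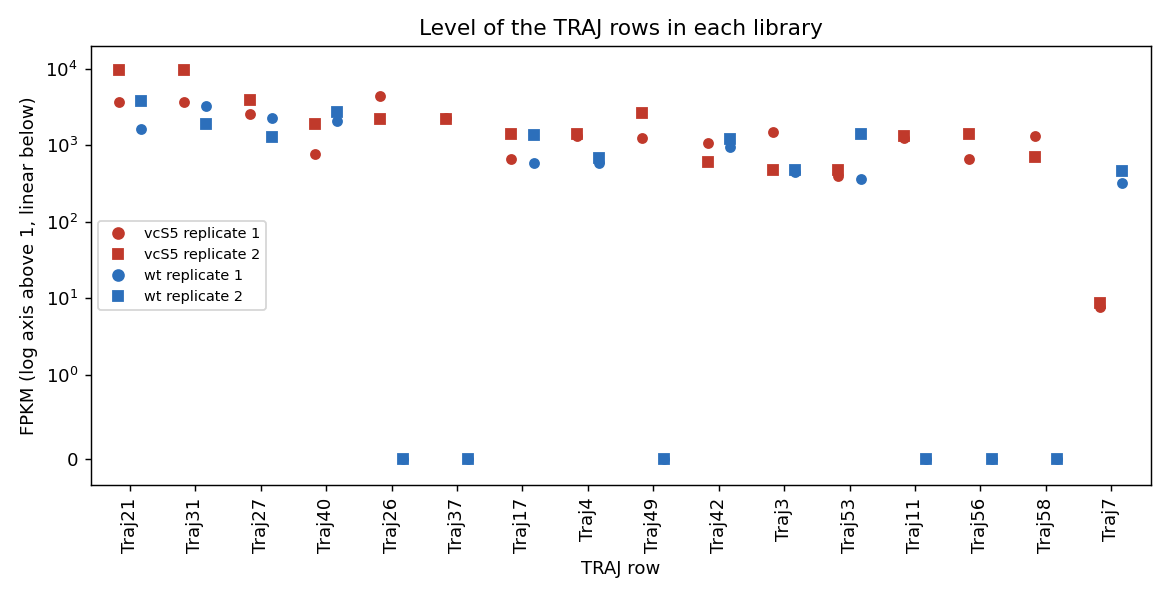
FPKM of the 16 TRAJ rows in the 2 vcS5 libraries (red) and the 2 wt libraries (blue), on an axis that is logarithmic above 1 and linear below it. In 6 rows both wt libraries lie at 0, where their points coincide, and the vcS5 libraries lie between 668 and 4485 FPKM.

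Shares within a class show how the FPKM of the measured rows were divided, apart from their total. They cover part of each class and are not counts of T cells. The row named Trbv13-2 held the largest share of TRBV FPKM in every library, 21.9% and 26.6% in vcS5 and 25.2% and 24.0% in wt. Trbv19 held 4.21% and 11.3% in vcS5 against 4.45% and 3.20% in wt, so that its share was raised in vcS5 replicate 2 alone. Trbv5 held 3.71% and 2.41% in vcS5 against 7.39% and 6.33% in wt. The shares of Trbv12-1, Trbv17 and Trbv29 were higher in both vcS5 libraries than in both wt libraries, those of Trbv5, Trbv15, Trbv23, Trbv26 and Trbv31 were lower, and those of the remaining 10 rows overlapped. These 3 and 5 of 18 rows are shares below and close to the 26.9% and 27.5% of all rows whose levels separated the groups in the same way. Trbv12-1 held 5.37% and 5.54% in vcS5 against 4.32% and 3.36% in wt. Shares in a class sum to 100%, so a gain of one row lowers the others.

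Among the 4 libraries, vcS5 replicate 2 had the least even TRBV rows. Evenness, the Shannon entropy of the shares over its maximum, was 0.898 and 0.857 in vcS5 and 0.900 and 0.887 in wt (exact permutation p = 0.667, two-sided, where 0.333 is the smallest possible). The entropy equals that of 13.4 and 11.9 equally used rows in vcS5 and 13.5 and 13.0 in wt. Without vcS5 replicate 2 evenness was higher in vcS5 by 0.0043. The 3 highest shares together made up 40.1% and 47.4% in vcS5 and 41.6% and 41.3% in wt. The share that would have to be moved to turn one library's TRBV profile into another's was 16.0% between the vcS5 libraries, 9.45% between the wt libraries and 11.3% to 17.2% between libraries of different groups. The vcS5 libraries thus differed from each other by about as much as they differed from wt. The mean distance between groups exceeded that within groups by 1.31 points, by 6.94 points without vcS5 replicate 1 and by -2.48 points without wt replicate 2.

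TRAV shares differed more between groups than within them. The same distance was 18.2% between the vcS5 libraries, 20.5% between the wt libraries and 22.0% to 28.4% between groups. The mean excess was 6.17 points, and 2.998 points without vcS5 replicate 2. Evenness was 0.933 and 0.919 in vcS5 and 0.947 and 0.948 in wt, and the number of equally used rows was 33.5 and 31.7 in vcS5 and 35.3 and 35.3 in wt, with exact permutation p = 0.333 (two-sided), the smallest possible. Among rows with a mean of at least 5 FPKM, evenness differed by 0.00041 in the other direction. Trav12-2 held 6.54% and 6.07% in vcS5 against 3.58% and 1.57% in wt, and Trav3-3 held 7.22% and 6.23% in vcS5 against 3.28% and 4.03% in wt. Trav16 held 4.77% and 6.38% in vcS5 against 2.54% and 2.82% in wt. No TRAV row held more than 7.48% in any library, a share that Trav14-1 reached in wt replicate 2. TRAV shares were higher in both vcS5 libraries than in both wt libraries in 11 of 43 rows and lower in 10, counts near those of the levels of all rows, of which 26.9% stood above and 27.5% below.

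**Figure D4:**
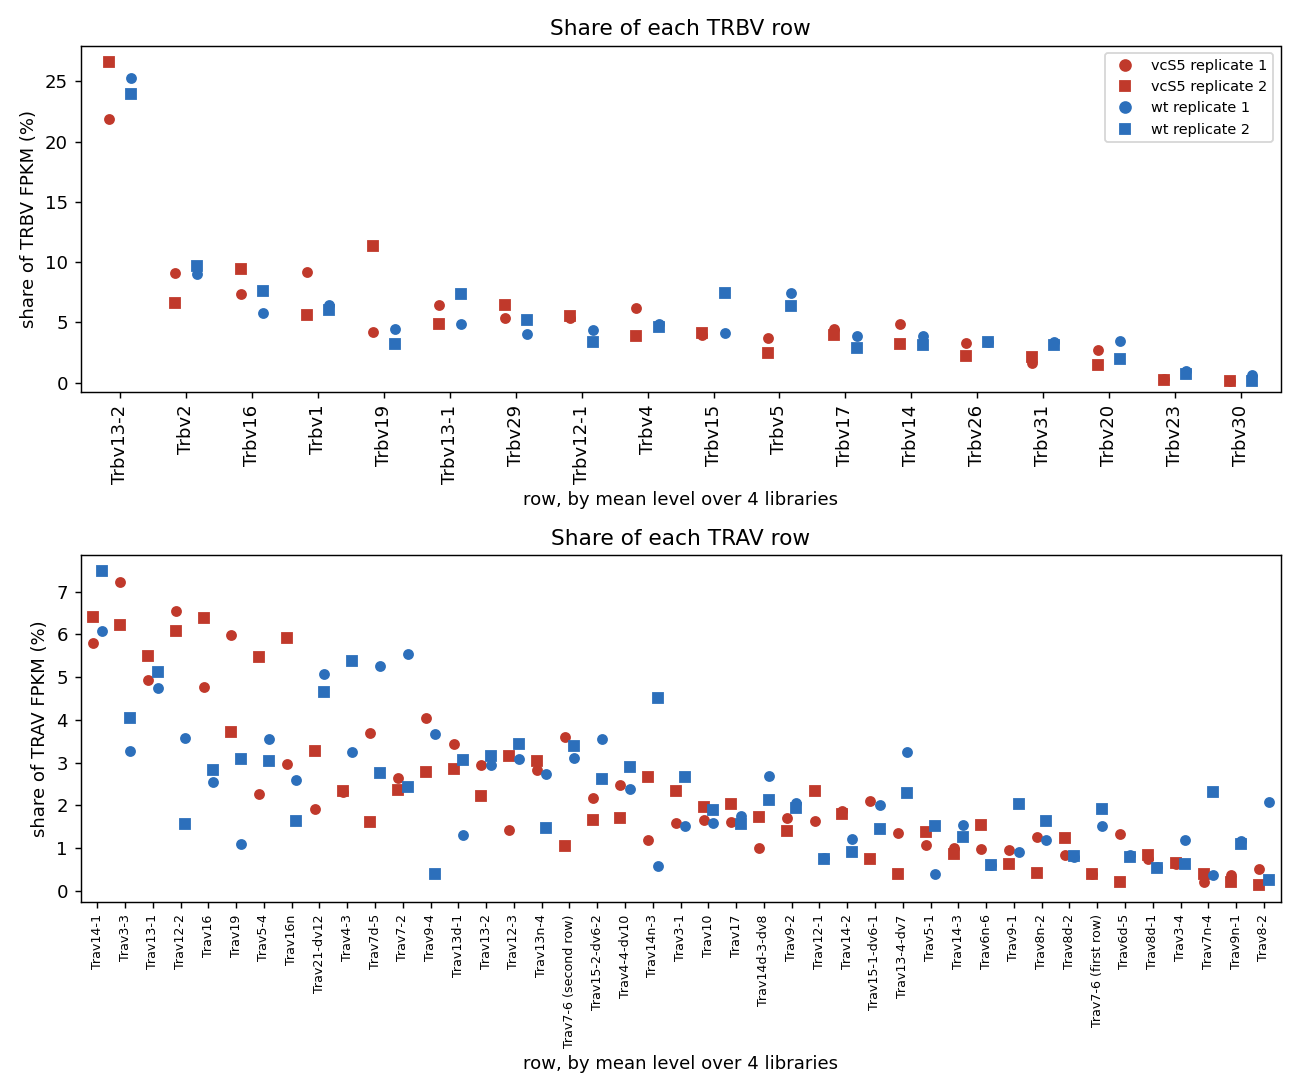
Share (%) of each row in the summed FPKM of its class, TRBV above and TRAV below, in the 2 vcS5 libraries (red) and the 2 wt libraries (blue), rows ordered by mean level. The row named Trbv13-2 lies between 21.9% and 26.6% in all libraries, and Trbv19 lies at 11.3% in vcS5 replicate 2 and at 4.45% or less in the other libraries.

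TRAJ shares are given for completeness, since few reads appear to lie behind them. Their evenness was 0.901 and 0.815 in vcS5 and 0.729 and 0.759 in wt (exact permutation p = 0.333, two-sided), with 6 rows listed at 0 in wt.

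Receptor and CD3 levels were compared within each library. The mean of Cd3d, Cd3e, Cd3g and Cd247, the signalling chains of the receptor complex, was 199 and 265 FPKM in vcS5 and 72.7 and 101 FPKM in wt, a ratio of means of 2.67. The TRBV sum over this mean was 6.47 and 5.18 in vcS5 and 6.54 and 6.15 in wt, overlapping ranges (exact permutation p = 0.667, two-sided). The log2 ratio was lower in vcS5 by a difference of -0.13, and of 0.028 in the other direction without vcS5 replicate 2. Trbc2 over CD3 was 1.62 and 1.363 in vcS5 and 1.68 and 1.73 in wt. The TRAV sum over CD3 was 1.26 and 1.12 in vcS5 and 1.62 and 1.49 in wt. The groups did not overlap in these last ratios, at exact permutation p = 0.333 for each (two-sided), the smallest possible. The choice of T cell genes set the direction. The mean of Cd2, Cd5 and Cd6, other surface proteins of T cells, was 108 and 130 FPKM in vcS5. In wt it was 67.2 and 84.3 FPKM. Against this mean the log2 ratio was 0.63 higher in vcS5 for TRBV, 0.57 higher for Trbc2 and 0.38 higher for TRAV. Among the 7 T cell markers, Cd2, Cd5 and Cd6 had the lowest ratios of mean FPKM, at 1.51, 1.51 and 1.85. Thy1, at 4.46, was not part of this mean.

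**Figure D5:**
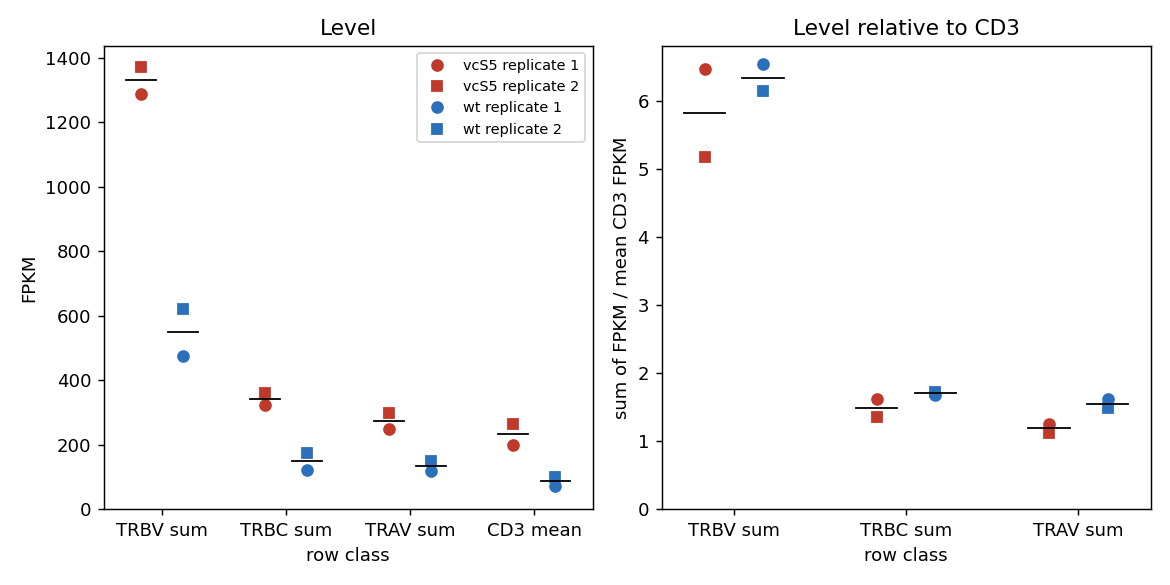
Left, summed FPKM of TRBV, TRBC and TRAV rows and mean FPKM of 4 CD3 and zeta genes. Right, each sum over the CD3 mean, with vcS5 libraries in red, wt libraries in blue and the group mean as a black line. The 4 quantities on the left are all higher in vcS5, and the TRBV ratio on the right overlaps between groups.

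Innate-like T cells could not be read from their alpha segments, and Trbv13 segments, among their beta partners, are also common in conventional T cells. NKT cells use an invariant alpha chain of Trav11 or Trav11d joined to Traj18, and MAIT cells one of Trav1 joined to Traj33, and none of these has a row of its own in the table used here. Of their partners, Trbv13-2, Trbv29 and Trbv1 were called higher, and Trbv13-1 and Trbv19 were not. Across the TRBV class, 8 of 18 rows were called higher. Cd1d1, the molecule that presents lipids to NKT cells, was lower, at 21.9 and 19.1 FPKM in vcS5 against 35.5 and 44.8 FPKM in wt (log2 change -0.93 ± 0.17 SE, limma adjusted p = 0.0376), and Mr1, which presents to MAIT cells, had 5.75 and 6.11 FPKM in vcS5 against 4.31 and 3.70 FPKM in wt (adjusted p = 0.154 by limma). Without any 1 library the call of Cd1d1 was lost, with a log2 change of -1.09 to -0.77. B cells also express Cd1d1.

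Other genes of the receptor pathway were read from a list of 25 measured rows, of which 11 were called higher and 3 lower, against the background of 4.59% and 4.13% given above. The number called higher was 2 without vcS5 replicate 1, 0 without vcS5 replicate 2, 2 without wt replicate 1 and 5 without wt replicate 2, and 1 was called lower each time. The row that stayed called lower was Trdj2, a short J segment of the delta chain listed at 0 in both vcS5 libraries. Among the CD3 and zeta chains 3 of 4 were called higher. Cd3e had 189 and 188 FPKM in vcS5 against 67.0 and 70.3 FPKM in wt (log2 change 1.45 ± 0.13 SE, limma adjusted p = 0.00852), and Cd3g, the chain not called, had 337 and 556 FPKM in vcS5 against 132 and 211 FPKM in wt (adjusted p = 0.0767 by limma). Cd3d and Cd247 were the other called chains. Cd3e and Cd247 lost their calls without any 1 library, Cd3d kept its call only without wt replicate 2, and without the variance trend the adjusted p of Cd247 by limma was 0.0564.

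Of 10 proximal signalling genes, 0 were called lower and 6 were called higher. Among them were Txk, a kinase of the Tec family, Lat, the adaptor that collects signalling proteins, Zap70, the kinase that docks on CD3 and zeta, Fyn, a Src-family kinase, and Ptpn22, a phosphatase that restrains signalling. Txk had 49.7 and 64.8 FPKM in vcS5 against 12.4 and 13.8 FPKM in wt (log2 change 2.04 ± 0.18 SE, limma adjusted p = 0.00736). Zap70 had 69.3 and 81.3 FPKM in vcS5 against 29.7 and 34.1 FPKM in wt (log2 change 1.21 ± 0.16 SE, limma adjusted p = 0.0168). Lck, the kinase that starts receptor signalling, had 409 and 637 FPKM in vcS5 against 148 and 226 FPKM in wt and missed the threshold (log2 change 1.48 ± 0.31 SE, limma adjusted p = 0.0522). Lcp2, Csk and Ptprc were not called. Txk kept its call only without wt replicate 2, and Lat, Zap70, Fyn and Ptpn22 lost theirs without any 1 library. With quantile normalization Lck and Lcp2 passed as well, at adjusted p of 0.0408 and 0.0403 by limma.

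The coreceptors, which bind the MHC molecule beside the receptor, split. Cd8a had 391 and 445 FPKM in vcS5 against 51.1 and 62.9 FPKM in wt (log2 change 2.86 ± 0.17 SE, limma adjusted p = 0.00259), and Cd8b1 had 566 and 660 FPKM in vcS5 against 74.2 and 104 FPKM in wt (log2 change 2.78 ± 0.22 SE, limma adjusted p = 0.00534). Cd4 had 35.6 and 36.0 FPKM in vcS5 against 56.8 and 71.0 FPKM in wt (log2 change -0.81 ± 0.16 SE, limma adjusted p = 0.0445). The log2 changes of both Cd8 chains were larger than that of any TRBV row. Without vcS5 replicate 2 the adjusted p of Cd8a by limma was 0.0570, and without either vcS5 library that of Cd8b1 was 0.0673 and 0.0839. Leaving out any 1 library ended the call of Cd4, whose log2 change stayed between -0.97 and -0.65, and without the variance trend its adjusted p by limma was 0.0582.

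Genes of receptor assembly were low or had no row. Dntt, which adds bases at the junctions during recombination, had 2.12 and 2.97 FPKM in vcS5 against 0.817 and 0.942 FPKM in wt (log2 change 0.90 ± 0.22 SE, limma adjusted p = 0.0739). Rag1, Rag2 and Ptcra have no row in the table used here. Of gamma and delta segments, which form the receptor of another T cell lineage, 5 rows were present. Trdv5 had 6.03 and 45.9 FPKM in vcS5 against 6.39 and 5.07 FPKM in wt, so that it was high in vcS5 replicate 2 alone. Trbv19 was highest in the same library, a link drawn after the values were seen. Trgv2 had 29.4 and 19.4 FPKM in vcS5 against 5.61 and 10.3 FPKM in wt (adjusted p = 0.0541 by limma). Trdj1 had 18.6 and 58.2 FPKM in vcS5 against 19.9 and 24.5 FPKM in wt. Trdv1 had 1.81 and 4.34 FPKM in vcS5 against 1.08 and 3.04 FPKM in wt. In both Trdj1 and Trdv1 the groups overlapped. Trdj2, a short J segment, was listed at 0 in both vcS5 libraries and at 1158 and 2580 FPKM in wt, and was the third row of the list called lower, beside Cd4 and Cd1d1.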

How the data were processed

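RNA was sequenced from splenocytes in 2 vcS5 and 2 wt libraries, made with the TruSeq RNA v2 kit, which does not mark strand, and read as 50-base single ends, per the labels' protocols. The authors deposited a table of FPKM per library and a q-value for the comparison of the groups, per the file headers. The submitters' processing notes name mm10 as the build, and as tools TopHat2 2.0.9, Bowtie2 2.1.0, Cuffdiff 2.1.1 and Cufflinks. Read numbers are lost in FPKM, so no counting interval is given.

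Rows without a symbol were named through their Ensembl identifier (18 of the 80). Values were taken as log2(FPKM + 1) and fitted over all 14226 rows with limma 3.58.1 (variance trend, no covariate, R 4.3.3). The p-values were adjusted by Benjamini-Hochberg at a threshold of 0.05. In simulated data the fit called 5.8% of 2-fold and 80.6% of 4-fold changes, and 5.9% of its calls were false. A row not called may therefore still have changed by 2-fold. The filter of a mean of 1 FPKM removed 0 rows. SEs are moderated ones, and folds are ratios of mean FPKM. Replicate numbers are not said to pair the samples. Sums, ratios and evenness were compared by exact permutation over libraries. The distance between profiles is the sum of the share gains from one library to the other. Sequence sharing was counted over windows of 50 bases in GENCODE vM21 transcripts. The members and lists were chosen with earlier results of these data known. Named rows are the constant regions, and in each V and J class the 3 largest called rises and falls and the 3 highest shares per group, plus the NKT and MAIT segments with their partners and the pathway genes. Other rows named were chosen after their values were seen. A gene that this rule names is not reported here. Alternatives covered pseudocounts, filters, quantile normalization, the variance trend, a replicate block, single-gene rows and each library left out.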

Additional observations from a re-analysis of the deposited data

How the results depend on the processing

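Pseudocounts of 0.1 and 5 FPKM, no filter, a minimum mean of 5 FPKM, quantile normalization and no variance trend left 21 to 24 of the receptor rows called higher and 1 lower. The authors' deposited q-values called 16 higher and 0 lower, rows that name 1 gene gave 22 and 0, and leaving out the TRAJ rows, a choice made after seeing the data, gave 16 and 0. For TRAJ alone, the deposited q-values gave 0 higher and 0 lower, and single-gene rows gave 0 lower. The same-numbered libraries share only a number (correlation of their deviations 0.235). With the replicate block 22 rows were called higher and 1 lower, 6 of them TRBV, 6 TRAV and 8 TRAJ, and 13 pathway genes were called higher and 1 lower. Among the segments named, Trbv1 did not pass in that fit and Trav13-1 and Traj21 did (limma adjusted p = 0.0661, 0.0353 and 0.0399).

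Leaving out 1 library at a time left 6 to 11 receptor rows called higher, 0 to 1 TRBV rows, 0 to 4 TRAV rows, and 0 to 5 pathway genes higher and 1 lower. With 1 library in a group, its spread is taken from the other group. The vcS5 minus wt difference of TRBV evenness then ran between -0.0366 and 0.0043, of the number of equally used TRBV rows between -1.33 and 0.16, and of the log2 ratio of TRBV to CD3 between -0.291 and 0.028. The distance of shares between groups less that within groups ran between -2.48 and 6.94 points for TRBV, 2.998 and 7.59 for TRAV and 13.7 and 21.7 for TRAJ, and was 0.041 for TRAV as a share of all receptor rows, a total made up mostly of TRAJ FPKM, so that this value is on a much smaller scale and cannot be set beside the others. The log2 change ran between -0.36 and 0.52 for Trav21-dv12, -0.17 and 0.35 for Trbv5, -1.358 and 1.59 for Trac, -0.24 and 1.356 for Trdj1 and -0.061 and 0.90 for Trdv1. Trac was at -0.14 under quantile normalization. Reversed differences were 0.00041 for TRAV evenness among rows of at least 5 FPKM, and 0.38, 0.63 and 0.57 for TRAV, TRBV and TRBC against Cd2, Cd5 and Cd6. The cause was not tested. The summed TRBV, TRAV and TRAJ levels kept their direction in every alternative run.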

Other observations

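An unannotated row between the V and J segments of the alpha locus, at mm10 chr14:54144105-54146229, had 15.6 and 31.7 FPKM in vcS5 and 14.3 and 13.4 FPKM in wt (log2 change 0.65, SE 0.33, adjusted p = 0.300 by limma). It was highest in vcS5 replicate 2, as Trbv19 and Trdv5 were, and was not called. The row was singled out after its values were seen.

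Of 4 natural killer markers, 1 was called higher and 2 lower by limma, against 4.59% and 4.13% of all rows. Eomes, a transcription factor also made by CD8 T cells, was called higher, at 44.0 and 46.9 FPKM in vcS5 against 10.6 and 7.86 FPKM in wt (log2 change 2.20, SE 0.18, adjusted p = 0.00593 by limma). Ncr1, a receptor of natural killer cells, was called lower, at 0.635 and 0.776 FPKM in vcS5 against 13.7 and 15.1 FPKM in wt (log2 change -3.17, SE 0.17, adjusted p = 0.00161 by limma). Klri2, a lectin-like receptor of natural killer cells, was called lower, at 1.56 and 1.45 FPKM in vcS5 against 5.18 and 4.33 FPKM in wt (log2 change -1.20, SE 0.18, adjusted p = 0.0245 by limma). Klrb1c, another such receptor, had 8.12 and 5.62 FPKM in vcS5 against 11.9 and 13.9 FPKM in wt and was not called (log2 change -0.84, adjusted p = 0.0757 by limma).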
